A study of Homo sapiens with 4 samples.

Results

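The genes described here are the Notch receptor genes NOTCH1, NOTCH2 and NOTCH3, the ligand genes DLL1 and JAG1, the pathway regulator DTX1 and the direct target genes HES1, HES4, HEY1 and HEYL. They were chosen by name, with earlier results of these data known, so the set is not independent of these arrays. Every probe set annotated to 1 of these symbols alone was taken. This gave 25 of the 54613 probe sets tested and 10 of the 19775 gene symbols on the array. Expression was compared between siLEF1 cells, Jurkat cells given 100 nM of a pool of siRNAs against LEF1, and siNT cells, which were Jurkat cells given 100 nM of a pool of non-targeting siRNAs. Jurkat is a human T-cell acute lymphoblastic leukemia (T-ALL) line, so that all values come from a single line, and both groups went through the same transfection and 24 h of culture. Each group had 2 arrays, which the labels call biological replicates, and this small number limits how precise any value is. Arrays of non-transfected cells were not analysed here.

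Notch receptors are cut by proteases once a ligand of the Delta or Jagged family on a neighbouring cell binds them. The freed intracellular part enters the nucleus, joins the DNA-binding protein RBPJ and a Mastermind coactivator, and switches on genes of the HES and HEY families, which encode transcriptional repressors. In the thymus this pathway directs progenitors to the T-cell lineage, and activating changes of NOTCH1 are among the most frequent lesions of T-ALL. LEF1 is a DNA-binding partner of β-catenin in the Wnt pathway and is also active in developing T-cells.

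The signals are log2 values after robust multichip average (RMA) normalization, and a difference of 1 is a 2-fold change. A probe set is a group of short probes meant to read a transcript region, and some probe sets are annotated to several genes. Of the Notch probe sets, 5 remained when those with identifiers ending in _x_at or _s_at were left out. The brightest probe sets of NOTCH2, JAG1 and HES4 end in _x_at. Whether probes of these types also bind transcripts of other genes was not tested. Differences are siLEF1 minus siNT from limma across all probe sets, and calls required an adjusted p under 0.05 together with more than a 2-fold difference. The array medians lay between 4.84 and 4.85 and the upper quartiles between 7.24 and 7.38. LEF1 itself, the siRNA target, has 3 probe sets. By the brightest its signals were 11.24 and 11.56 in siLEF1 cells, against 12.30 and 11.92 in siNT cells, and the next 6.88 and 7.24, against 8.20 and 7.78. The dimmest had 4.48 and 4.85 in siLEF1 cells, against 4.89 and 4.81 in siNT cells, so that its groups overlapped. The log2 fold changes of the brighter pair were -0.71 (1.64-fold lower, adjusted p = 0.191 from limma) and -0.93 (1.90-fold lower, adjusted p = 0.141 from limma), and none of the 3 probe sets was called. Of 10 T-cell marker genes, 9 lay above the upper quartile in each array and their summed signal ran between 94.09 and 94.99 in siLEF1 cells and between 88.78 and 93.44 in siNT cells. None of the 5 B-cell or the 4 myeloid markers measured lay above the upper quartile in any array, and their summed signals were 26.82 to 27.52 and 15.88 to 16.84 in siLEF1 cells, against 26.91 to 27.00 and 17.82 to 18.62 in siNT cells. The myeloid markers had a median log2 fold change of -0.51, 3 of the 4 below 0. Among them CD14 had 3.92 and 3.93 in siLEF1 cells, against 4.04 and 5.58 in siNT cells, high in siNT replicate 2 as DLL1, HES1 and HEY1 also were, and LYZ had 2.90 and 3.19, against 4.59 and 3.38, high in siNT replicate 1. CD14 lay below the array median in 3 arrays and LYZ in all 4, with 2 of these below the lower quartile. In the other myeloid markers, CSF1R and MPO, the groups overlapped, with log2 fold changes of -0.14 and 0.10. The part of the myeloid markers in the values of the Notch genes was not tested. Of 9 epithelial and stromal markers, 2 lay above it in the siLEF1 arrays and 3 in the siNT arrays, with sums of 48.26 to 49.20 in siLEF1 cells and 47.02 to 47.88 in siNT cells. The 5' minus 3' signal of ACTB, a measure of RNA integrity, was -1.08 and -1.55 in siLEF1 cells, against -1.80 and -1.95 in siNT cells. That of GAPDH was -0.34 and -0.32 in siLEF1 cells, against -0.39 and -0.65 in siNT cells. Both were lowest in siNT replicate 2, and their part in the values below was not tested.

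None of the 25 probe sets was called, with adjusted p between 0.161 and 0.969 from limma. All 25 also differed by less than the 2-fold that a call required, but without the fold threshold 0 of them were called as well. Of all probe sets 0.183% were called lower and 0.0238% higher. At an unadjusted p under 0.05, 2 of the 25 were lower and 3 were higher, beside 8.79% and 6.85% of all probe sets. In 15 of the 25 the groups of arrays did not overlap, 6 of them lower and 9 higher, beside 21.2% and 27.4% of all probe sets. By the brightest probe set of each gene, 2 of the 10 were lower and 2 higher at an unadjusted p under 0.05 (11.5% and 7.00% of all symbols), and both siLEF1 arrays lay above both siNT arrays in NOTCH1, NOTCH2, JAG1, DTX1 and HES4 (5 of 10 genes, background 28.1%). They lay below them in DLL1, HES1, HEY1 and HEYL (4 of 10 genes, background 26.4%), and in NOTCH3 the groups overlapped. The median log2 fold change over the 10 genes was 0.19, beside 0.02 over all 19775 symbols. Levels in RNA of whole cultures do not tell fewer cells with a transcript from less of it in each cell.

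**Figure D1:**
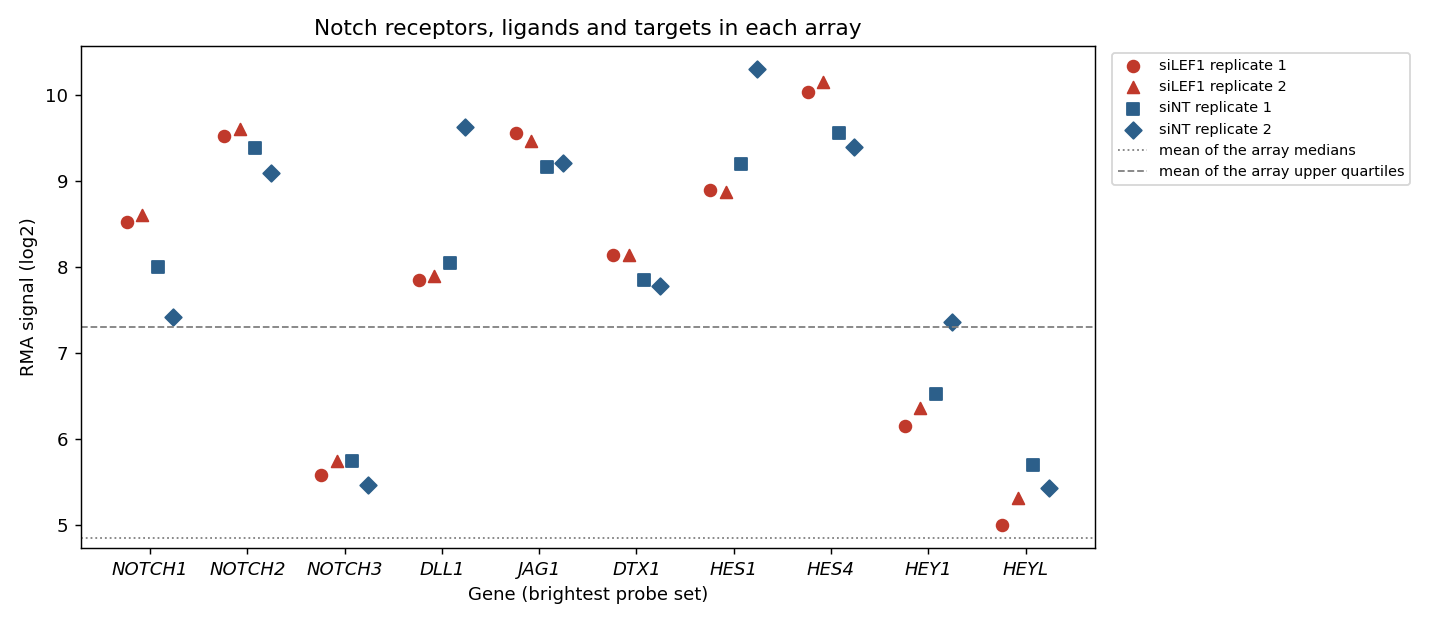
RMA signal on the log2 scale (vertical axis) of the brightest probe set of each of the 10 genes (horizontal axis) in the 4 arrays, with circles and triangles for the siLEF1 replicates and squares and diamonds for the siNT replicates. DLL1, HES1 and HEY1 stand out by siNT replicate 2, which lies above the other 3 arrays, while in HES4 and DTX1 the 2 arrays of each group lie close together. Heights are not comparable between genes, since each probe set binds differently.

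NOTCH1, the receptor most often mutated in T-ALL, had signals of 8.52 and 8.61 in siLEF1 cells, against 8.0 and 7.43 in siNT cells. Both siLEF1 arrays were higher, and siNT replicate 2 was the lowest of the 4. The log2 fold change of this probe set (218902_at) was 0.85, 1.81-fold (standard error, SE, of 0.22, 95% confidence interval 0.33 to 1.38), and it was not called (adjusted p = 0.165 from limma). Without siNT replicate 1 it was 1.14 and without siNT replicate 2 it was 0.57, each from a fit with a lone siNT array. The other NOTCH1 probe set (223508_at) was dim, with 4.66 and 4.57 in siLEF1 cells, against 4.42 and 4.91 in siNT cells. These signals lay below the array median in 3 arrays, the groups overlapped, and the log2 fold change was -0.05.

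NOTCH2, a receptor expressed in many tissues, was read by 4 probe sets of its own, all with log2 fold changes above 0, between 0.22 and 0.46. With each array centred on housekeeping genes instead, the probe set at 0.22 had -0.01. The brightest (202443_x_at) had 9.53 and 9.61 in siLEF1 cells, against 9.39 and 9.10 in siNT cells, with a log2 fold change of 0.33 (SE 0.17, adjusted p = 0.411 from limma). The steepest (210756_s_at) had 7.14 and 6.76 in siLEF1 cells, against 6.55 and 6.43 in siNT cells (log2 fold change 0.46, adjusted p = 0.307 from limma). In both, each siLEF1 array was above each siNT array. A further probe set (227067_x_at) is annotated to NOTCH2 together with 4 NOTCH2NL genes, partial copies of NOTCH2 that arose in the human lineage, and is therefore assigned to none of them. Its signals were 8.14 and 8.38 in siLEF1 cells, against 8.73 and 9.07 in siNT cells, so that it ran opposite to the probe sets of NOTCH2 alone. Its log2 fold change was -0.64 (SE 0.18, adjusted p = 0.195 from limma).

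NOTCH3, itself a target of NOTCH1 in T-cell leukemia, was read by a pair of dimmer probe sets. The brighter (203237_s_at) had 5.59 and 5.75 in siLEF1 cells, against 5.75 and 5.47 in siNT cells, where the groups overlapped (log2 fold change 0.06, 95% confidence interval -0.35 to 0.47). The other (203238_s_at) had 5.22 and 5.13 in siLEF1 cells and 4.92 in both siNT arrays (log2 fold change 0.26, adjusted p = 0.462 from limma). The first of these values was below 0 with housekeeping centring (-0.17).

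DLL1 encodes a Delta-type ligand. Its brighter probe set (224215_s_at) had 7.85 and 7.89 in siLEF1 cells, against 8.05 and 9.63 in siNT cells. Both siLEF1 arrays were the lower ones, but siNT replicate 1 lay only 0.18 above their mean and siNT replicate 2 lay 1.59 above siNT replicate 1, a gap wider than in 99.8% of all probe sets. The log2 fold change was -0.97 (SE 0.47, 95% confidence interval -2.11 to 0.17, adjusted p = 0.389 from limma). It was -1.76 without siNT replicate 1 and -0.18 without siNT replicate 2, each from a fit with a lone siNT array. The dimmer DLL1 probe set (227938_s_at) lay below the median in all 4 arrays, with a log2 fold change of 0.08.

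JAG1, a ligand of the Jagged type, was read by 6 probe sets, 4 of them above 0 and 2 below. The brightest (209099_x_at) had 9.56 and 9.47 in siLEF1 cells, against 9.17 and 9.21 in siNT cells, and the next (216268_s_at) had 9.48 and 9.37, against 8.84 and 9.19. In both the siLEF1 arrays were higher, and their log2 fold changes were 0.32 (SE 0.15, adjusted p = 0.359 from limma) and 0.41 (SE 0.18, adjusted p = 0.334 from limma). The other 4 were dimmer and ran between -0.20 and 0.35. In 3 of these the groups overlapped, and the one at -0.20 lay below the array median throughout. DTX1, a ubiquitin ligase of the Deltex family that Notch induces in T-cells, had a single probe set (227336_at) with 8.14 in both siLEF1 arrays, against 7.85 and 7.78 in siNT cells. The gap between the groups was wide beside that between replicates, and the log2 fold change was 0.33 (SE 0.15, 95% confidence interval -0.02 to 0.68, adjusted p = 0.349 from limma).

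**Figure D2:**
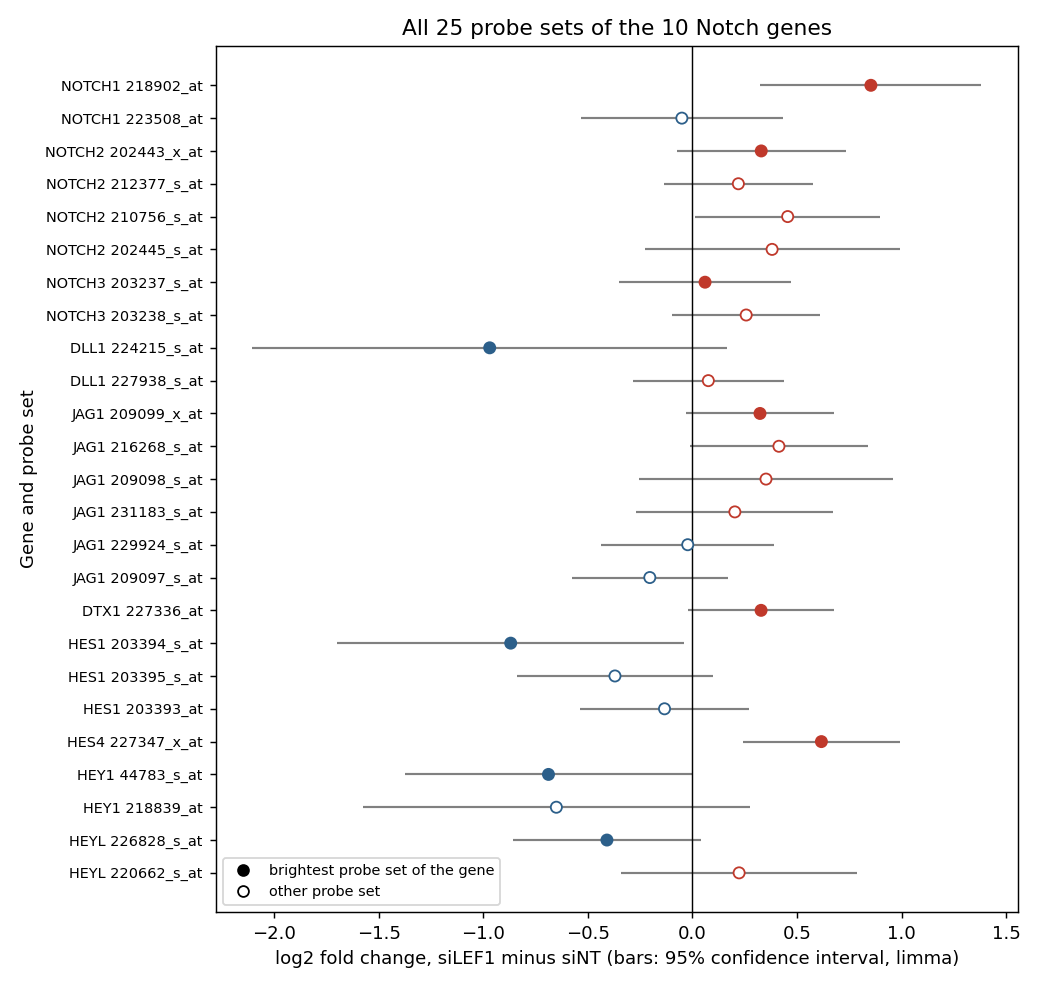
Log2 fold change siLEF1 minus siNT (horizontal axis) of all 25 probe sets by gene (vertical axis), with 95% confidence intervals from limma as bars, where filled points are the brightest probe set of a gene and red or blue marks values above or below 0. DLL1, HES1 and HEY1 have the widest intervals among the brightest probe sets, and of all 25 intervals those of NOTCH1 (218902_at), HES4 and NOTCH2 (210756_s_at) lie above 0 and those of HES1 (203394_s_at) and HEY1 (44783_s_at) below 0.

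Among the target genes the brightest probe sets of HES1, HEY1 and HEYL had values below 0 and HES4 one above. HES1 is a repressor that Notch induces directly and that limits its own transcription, and HES4 is a related repressor gene found in humans and not in mice. For HES1, HES4 and HEYL the 200 bases before the RefSeq start site (GRCh38.p14) are shown, because RBPJ, through which Notch acts, recognises the letters TGGGAA, and these are in capitals on either strand. HES1 lies at chr3:194135948-194136147, plus strand, HES4 at chr1:1000098-1000297, minus strand, and HEYL at chr1:39639644-39639843, minus strand.
HES1: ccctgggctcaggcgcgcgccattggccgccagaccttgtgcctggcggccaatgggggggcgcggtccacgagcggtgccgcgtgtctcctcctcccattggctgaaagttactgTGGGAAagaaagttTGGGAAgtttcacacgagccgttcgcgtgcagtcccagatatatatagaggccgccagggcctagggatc
HES4: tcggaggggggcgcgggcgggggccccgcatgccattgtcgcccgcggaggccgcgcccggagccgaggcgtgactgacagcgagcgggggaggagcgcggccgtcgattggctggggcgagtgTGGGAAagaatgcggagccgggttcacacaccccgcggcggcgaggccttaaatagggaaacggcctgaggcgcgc
HEYL: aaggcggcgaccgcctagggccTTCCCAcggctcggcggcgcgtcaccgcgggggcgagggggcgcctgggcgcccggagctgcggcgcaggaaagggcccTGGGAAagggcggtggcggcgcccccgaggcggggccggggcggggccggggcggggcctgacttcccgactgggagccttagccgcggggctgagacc
HES1 held the letters 84 and 70 bases before the start, both in the direction of the gene. HES4 held them once, 76 bases before the start, and HEYL 178 bases before it on the opposite strand and 99 bases before it in the direction of the gene. Promoter windows of 300 bases, from 250 before the start to 50 after it, were searched for 7 of the 10 genes. TGGGAA was found in 3 of the 7, against 24.0% of 35116 such windows, on either strand, and the longer GTGGGAA, which contains it, in the same 3, against 6.25%. The LEF1 and TCF letters CTTTGAA or CTTTGAT or CTTTGTA or CTTTGTT, which contain neither of these, were found in 0 of the 7, against 13.8%. A match is a description of the letters and not evidence of binding.

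HES1, with its pair of RBPJ letters, had signals of 8.90 and 8.88 in siLEF1 cells, against 9.21 and 10.31 in siNT cells, by its brightest probe set (203394_s_at). The siLEF1 arrays agreed within 0.03, whereas siNT replicate 2 lay 1.1 above siNT replicate 1, a gap wider than in 98.9% of probe sets. The log2 fold change was -0.87, 1.83-fold lower (SE 0.34, 95% confidence interval -1.70 to -0.04, adjusted p = 0.301 from limma). Without siNT replicate 1 it was -1.42 and without siNT replicate 2 it was -0.32, each from a fit with a lone siNT array. The second probe set (203395_s_at) had 7.79 and 7.99 in siLEF1 cells, against 8.05 and 8.46 in siNT cells, with the same order of groups and a smaller difference of -0.37 (adjusted p = 0.422 from limma). The third (203393_at) lay below the lower quartile of all 4 arrays, with signals between 2.89 and 3.23 and a log2 fold change of -0.13.

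HES4 had the smallest p of the 25 probe sets and ran the other way. Its single probe set (227347_x_at) had 10.04 and 10.15 in siLEF1 cells, against 9.57 and 9.39 in siNT cells, so that both siLEF1 arrays were clearly higher and the replicates of each group lay within 0.18 of each other. The log2 fold change was 0.62, 1.53-fold (SE 0.15, 95% confidence interval 0.24 to 0.99, adjusted p = 0.161 from limma). It lay between 0.39 and 0.70 under every alternative that kept this probe set, without a call in any of them. The alternative without the _x_at and _s_at types left HES4 out.

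HEY1 and HEYL encode repressors of the Hairy-related family with a YRPW-type motif. The brighter HEY1 probe set (44783_s_at) had 6.15 and 6.36 in siLEF1 cells, against 6.53 and 7.36 in siNT cells, with a log2 fold change of -0.69 (SE 0.28, adjusted p = 0.317 from limma). Both siLEF1 arrays were the lower ones, and the value was -1.11 without siNT replicate 1 and -0.27 without siNT replicate 2, not called in either. The other (218839_at) had 5.91 and 5.75 in siLEF1 cells, against 5.85 and 7.10 in siNT cells, where siNT replicate 1 lay between the siLEF1 arrays and the groups overlapped. Its log2 fold change of -0.65 rested on siNT replicate 2. It was -1.28 without siNT replicate 1 and -0.03 without siNT replicate 2, the lowest and highest over the alternatives. Each of these fits has a lone siNT array. HEYL gave opposite values in its probe sets. The brighter (226828_s_at) had 5.00 and 5.31 in siLEF1 cells, against 5.70 and 5.43 in siNT cells (log2 fold change -0.41, adjusted p = 0.358 from limma). The other (220662_s_at) had 5.69 and 5.18 in siLEF1 cells, against 5.01 and 5.41 in siNT cells (log2 fold change 0.22, adjusted p = 0.705 from limma). The arrays of the second overlapped, and its replicates differed by more than its groups.

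The distance from each control array differed between the genes. In NOTCH1, NOTCH2, JAG1, DTX1 and HES4 the siLEF1 mean lay above siNT replicate 1 by 0.18 to 0.57 and above siNT replicate 2 by 0.30 to 1.14. In DLL1, HES1 and HEY1 the distance from siNT replicate 2 was -1.76, -1.42 and -1.11, against -0.18, -0.32 and -0.27 from siNT replicate 1. HEYL was the exception among the lower genes, with -0.54 from siNT replicate 1 and -0.27 from siNT replicate 2. Across all probe sets the gap between replicates had a median size of 0.147 for siLEF1 and 0.206 for siNT. Between arrays of different groups it ran from 0.169, for siNT replicate 1 and siLEF1 replicate 2, to 0.262, for siNT replicate 2 and siLEF1 replicate 1. The 5 genes with higher siLEF1 signals had siNT gaps of 0.04 to 0.58 in size and siLEF1 gaps of at most 0.11, while the 4 with lower signals had siNT gaps of 0.27 to 1.59 and siLEF1 gaps of at most 0.31.

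**Figure D3:**
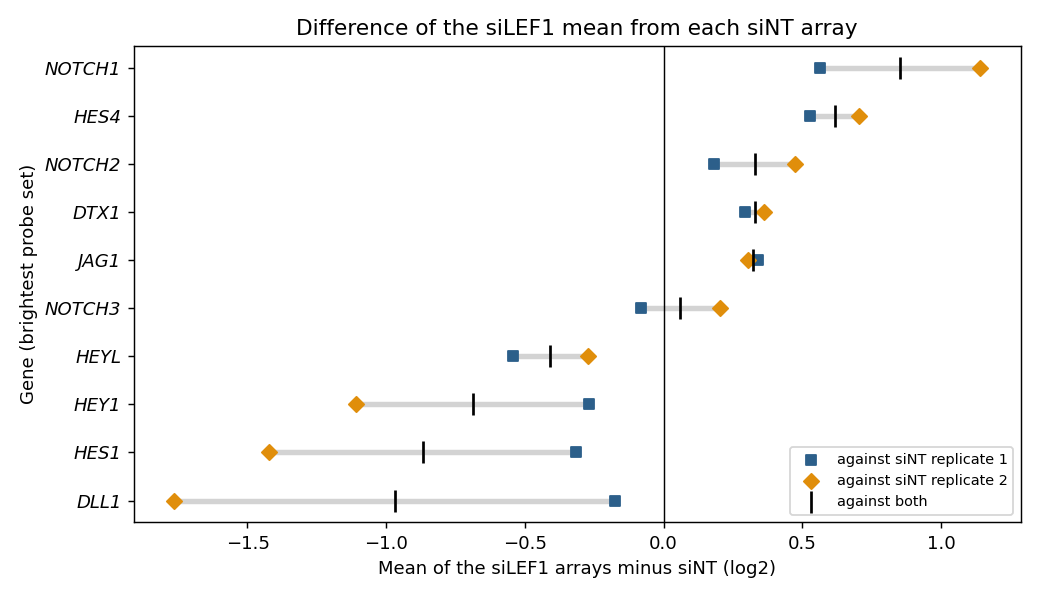
Mean signal of the siLEF1 arrays minus that of siNT replicate 1 (squares), of siNT replicate 2 (diamonds) and of both (bars), on the log2 scale (horizontal axis), for the brightest probe set of each gene (vertical axis). The spread between the marks is widest in DLL1, where the values are -0.18 and -1.76, and NOTCH3 lies on both sides of 0.

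Of 63 other genes of the pathway, in 7 lists chosen with earlier results of these data known, 58 were measured. By their brightest probe sets 1 was called lower, where 0.263% of all symbols were, and 0 were called higher, where 0.0657% were. At an unadjusted p under 0.05 3 were lower and 6 higher, against 11.5% and 7.00% of all symbols. Their median log2 fold change was 0.08. The gene called was RELB, which encodes a subunit of NF-κB and was listed among the T-cell leukemia Notch targets. It had 5.38 and 5.31 in siLEF1 cells, against 7.29 and 7.52 in siNT cells, so that the groups stood far apart beside the gaps between replicates. Its log2 fold change was -2.06, 4.17-fold lower (SE 0.16, adjusted p = 0.0234 from limma). RELB kept this size in every alternative, between -2.29 and -1.94, but not its call. Without siLEF1 replicate 1 it was -2.10 (adjusted p = 0.684 from limma), without siLEF1 replicate 2 -2.02 (adjusted p = 0.498 from limma) and without siNT replicate 2 -1.94 (adjusted p = 0.0839 from limma), fits in which the whole table held 0 calls. It also lost its call without the dim probe sets (adjusted p = 0.0514 from limma) and in the F test without moderation across all probe sets (adjusted p = 0.598), and the adjusted p ran between 0.000351 and 0.684 over all alternatives.

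The list of T-cell leukemia Notch targets held 13 genes with a median of 0.26, 9 above 0 and 4 below. MYC, the growth regulator through which NOTCH1 drives leukemic proliferation, had 11.42 and 11.15 in siLEF1 cells, against 10.61 and 10.20 in siNT cells. Both siLEF1 arrays were higher, with a log2 fold change of 0.88 (SE 0.20, adjusted p = 0.139 from limma), and it was not called under any alternative. SKP2, a ubiquitin ligase subunit that removes cell cycle inhibitors, had 11.14 and 11.06, against 10.47 and 10.09 (log2 fold change 0.82, adjusted p = 0.135 from limma). IGF1R, a growth factor receptor gene, had 9.24 and 9.28, against 8.67 and 7.95 (log2 fold change 0.95, adjusted p = 0.171 from limma), and its siLEF1 mean lay 0.59 above siNT replicate 1 and 1.31 above siNT replicate 2. Without siNT replicate 1 the log2 fold change was 1.31, from a fit with a lone siNT array. Another IGF1R probe set of similar brightness (203627_at) had 0.23, with overlapping groups. In the brightest probe set of each of these 3 genes the siLEF1 arrays were the higher ones, and siNT replicate 2 was the lowest array. NFKB2, which encodes another NF-κB subunit and was picked out after its values were seen, had 4.55 and 5.19 in siLEF1 cells, against 5.71 and 5.61 in siNT cells (log2 fold change -0.79, adjusted p = 0.202 from limma).

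Among 11 ubiquitin ligases and endocytic regulators, which set the turnover of receptors and ligands, the median was 0.07. ITCH, a ubiquitin ligase that acts on Notch and on other substrates, had 7.90 and 8.11 in siLEF1 cells, against 9.04 and 9.69 in siNT cells. Both siLEF1 arrays lay below both siNT arrays. The 6 ITCH probe sets did not move alike. The groups were apart in 3 of them, with log2 fold changes of -1.36, -1.55 and -1.25, and overlapped in the other 3, with -0.10, -0.14 and -0.07. The probe set at -0.10 (235057_at) was nearly as bright as the one quoted, with 8.61 and 8.42 in siLEF1 cells, against 8.65 and 8.58 in siNT cells. The log2 fold change of the brightest was -1.36 (SE 0.24, adjusted p = 0.0956 from limma) and was not called. It was -1.69 without siNT replicate 1, from a fit with a lone siNT array. With housekeeping centring it was called, at -1.59 (adjusted p = 0.00962 from limma). In the F test without moderation it was not called (adjusted p = 0.608). DTX3, NUMB and DTX3L had 0.28, -0.32 and 0.32, where the signals of DTX3 and NUMB lay below the array median in all 4 arrays.

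The remaining lists had no gene called. The 5 glycosyltransferases, which modify the receptors' extracellular part, had a median of 0.24, with 0.51 for MFNG, 0.40 for LFNG, 0.24 for POGLUT1 and -0.18 for RFNG. The other receptor and ligand genes had a median of 0.06 over 5, with 0.45 for the ligand JAG2, -0.20 for NOTCH4, 0.16 for DLK1 and 0.06 for DLL4. Only JAG2 and MFNG of these were under an unadjusted p of 0.05, with adjusted p of 0.277 and 0.268 from limma. Of 9 proteases and protease subunits that cut the receptors, 8 were measured, 6 of them below 0, with a median of -0.16. Among these PSEN2, PSENEN, NCSTN and ADAM17 had -0.38, -0.22, -0.19 and -0.20. In the nuclear complex and its corepressors, 11 of 14 were measured with a median of 0.09, with 0.35 for the coactivator MAML1, -0.38 for SNW1, -0.35 for KAT2B and 0.30 for CTBP1. The 5 of 6 other HES and HEY genes measured had a median of 0.14, with 0.26 for HES6, 0.21 for HES7, -0.21 for HEY2 and 0.14 for HES2. No gene of these last 3 lists was under an unadjusted p of 0.05. HEY2 lay below the array median in all 4 arrays, and of the 3 HES2 probe sets 2 were above 0 and 1 below. With housekeeping centring every log2 fold change was lower by 0.23, so that the values between 0 and 0.23 above change sign, and only distances from the median of all genes are independent of it.

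**Figure D4:**
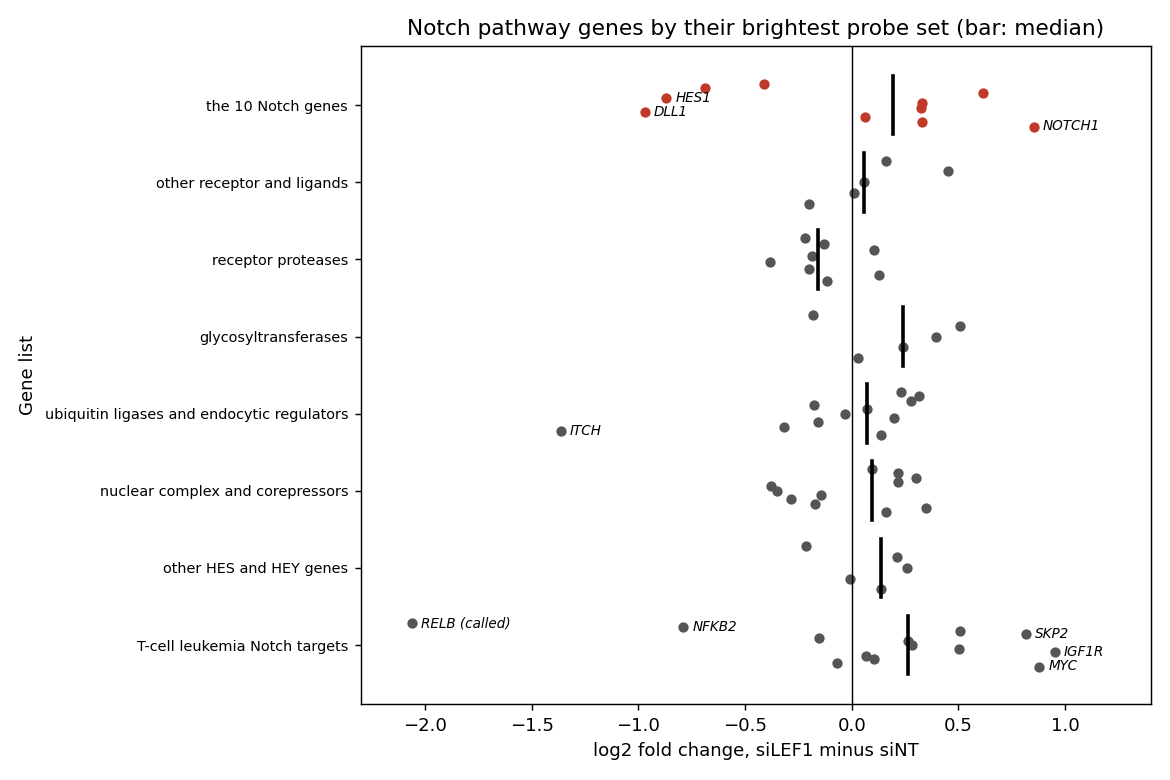
Log2 fold change siLEF1 minus siNT (horizontal axis) by the brightest probe set of the 10 Notch genes (red) and of the 58 other pathway genes measured (grey), by list (vertical axis), with the median of each list as a bar and genes beyond 0.78 in size named. RELB at -2.06 is the only gene called, and list medians lie between -0.16 and 0.26.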

How the data were processed

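RNA of Jurkat cells was hybridised to Affymetrix HG-U133 Plus 2.0 arrays, 2 per group. Per the submitters' processing notes the tool was Affymetrix Expression Console 1.1. The authors normalized the arrays by RMA and deposited log2 signals of every probe set, unfiltered. Which arrays shared the RMA run is not stated, and quantile normalization can narrow a shift common to most genes.

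The 62 control probe sets were left out, and siLEF1 minus siNT was tested 2-sided on the remaining 54613 with limma 3.58.1 (lmFit and eBayes, R 4.3.3), with Benjamini-Hochberg adjustment over all of them. Calls needed an adjusted p under 0.05 with over a 2-fold difference, the thresholds of the study's methods. The study applied them to an analysis of variance that included non-transfected cells, so the test and the arrays differ here. Symbols came from the platform annotation, updated by Entrez number, of which 21304 of 21359 were matched. Promoters came from RefSeq (GRCh38.p14).

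All 10 genes are named with every probe set. In each of the 7 pathway lists the 4 genes with the smallest p are named, and any gene called. The members and lists were chosen with earlier results of these data known. Alternatives tried were leaving out probe sets with a mean signal under 6, other variance models, the replicate number as a block, centring on the array median or on 18 housekeeping genes, other choices of probe sets, no fold threshold and each array left out in turn. With 1 array left out, the lone array is taken to vary like the other group. The fit was tested on simulated data, where it called none of the changes of 2-fold or smaller. The absence of a call therefore does not exclude changes of that size.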

Additional observations from a re-analysis of the deposited data

How the results depend on the processing

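For the Notch genes, 0 probe sets were called lower or higher under every alternative except the removal of single arrays, where between 0 and 3 were called lower and between 0 and 1 higher. The calls of NOTCH1, DLL1, HES1 and HEY1 arose without siNT replicate 1, which leaves a lone siNT array. In that fit more probe sets of the whole table were called, both lower and higher, than with all arrays. When another array was left out no call arose, in the Notch genes or in the whole table. At an unadjusted p under 0.05 there were 5 of 25 with all arrays by limma, beside 8538 of all 54613 probe sets. There were 4 by the F test without moderation (4393 of all probe sets) and 7 with housekeeping centring (7461). The replicate block gave 5 (7756), and the crossed block 9 (10070). Both the count in the 25 and that in the whole table fell without either siLEF1 array or siNT replicate 2. Both rose without siNT replicate 1. The median log2 fold change of the 10 genes was -0.039 with housekeeping centring, which lowered the median of all probe sets by 0.23, and ran between 0.05 and 0.25 when an array was left out. Housekeeping centring changed the sign of 5 probe sets, and leaving out any 1 array that of 2, none of them called.

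Of the other pathway genes, the number called lower was 0 with the filter on dim signals and with the F test, 2 (RELB and ITCH) with the replicate block and with housekeeping centring, and 0 to 2 when an array was left out. The number called higher was 0 to 1 when an array was left out. Over the whole table, 100 probe sets were called lower and 13 higher. These counts were 4 and 1 with the filter, 0 and 0 with the F test (4393 at an unadjusted p under 0.05), 977 and 120 with the replicate block, 1641 and 72 with housekeeping centring, and 171 and 29 with 1 probe set per gene. With an intensity trend and robust fitting 20 were called higher. When an array was left out they ran from 0 to 1287 and from 0 to 595.

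The labels do not say that the replicate numbers pair the arrays, and the deviations of same-numbered arrays had a correlation of -0.15 across probe sets. With the pairing crossed, chosen after seeing the data, the replicate block gave 763 lower and 159 higher probe sets in the whole table, 0 of the Notch probe sets and 2 of the other pathway genes lower, RELB and ITCH. Signals below the array median, as in 5 of the 25 probe sets in at least 1 array, limit how far a change can be seen.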

Other observations

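Of the 10 T-cell marker genes used to check the cell line, 9 had a log2 fold change above 0, with a median of 0.41, and 5 were higher at an unadjusted p under 0.05, against 7.00% of all symbols. None was called. CD3G, a chain of the T-cell receptor complex, had 10.04 and 10.23 in siLEF1 cells, against 9.46 and 9.16 in siNT cells (log2 fold change 0.83, adjusted p = 0.123 from limma). The list also differed between the control arrays, by a median of -0.48 for siNT replicate 2 minus siNT replicate 1, and the siLEF1 mean lay above siNT replicate 1 by a median of 0.18. The 9 epithelial and stromal markers had a median of 0.11, 6 above 0 and 3 below, and the 2 of them at an unadjusted p under 0.05 went opposite ways. KRT18, a keratin, had 6.81 in both siLEF1 arrays, against 7.38 and 7.45 in siNT cells (log2 fold change -0.60, adjusted p = 0.151 from limma). PECAM1, an adhesion molecule, had 10.29 and 10.32 in siLEF1 cells, against 9.33 and 8.43 in siNT cells, a difference of 1.43 (adjusted p = 0.117 from limma).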
